A study of Mus musculus with 6 samples.

Results

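Cholesterol homeostasis was followed through 31 genes, chosen by symbol for their known roles out of 24421 gene rows in the count table. They comprise 18 enzymes of cholesterol synthesis, 5 genes of the SREBP control system, 5 genes of LXR signalling and sterol efflux, and 3 genes of sterol movement inside the cell. All 31 were found and all passed the filter on low counts. RNA came from bone marrow LK cells of C57BL/6 mice, which lack lineage markers and carry the receptor c-Kit and so include stem cells and myeloid, erythroid and megakaryocyte progenitors. Wild type animals were compared with littermates carrying the ASXL1-MT-KI genotype, a knock-in of a mutant form of the chromatin regulator ASXL1. Animals of both genotypes were 8 to 12 weeks old, and each genotype had 3 libraries, described as biologically independent experiments. The labels do not say what drives the knock-in allele or whether a library was 1 animal.

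Cells make cholesterol from acetyl-CoA through mevalonate, isoprenoid diphosphates and squalene. When sterols in the endoplasmic reticulum are low, SCAP carries the SREBP precursors to the Golgi, where they are cut into active transcription factors that switch on the synthesis genes; when sterols are high, INSIG proteins hold SCAP back. The nuclear receptors LXR alpha and LXR beta respond to oxysterols and induce the exporters ABCA1 and ABCG1, and in blood-forming tissue this efflux arm is known for restraining the expansion of stem and progenitor cells.

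The libraries held 40462168 to 47579480 counts. Asxl1 stood at 170.4 ± 5.43 CPM in wild type and 320.1 ± 8.71 CPM in ASXL1-MT-KI (SD, n = 3 each), without overlap. CPM is the usual depth-normalised read count, here with library sizes scaled by TMM. Kit, which defines the gate, was at 406.4 ± 41.0 and 382.9 ± 11.7 CPM, overlapping between genotypes. Of 12 lymphocyte markers 6 had too few counts to test and 1 of these, Cd3g, had none in any library, while Nkg7 was at 172.2 ± 7.99 and 174.5 ± 26.7 CPM and the B cell gene Cd79a fell (2.22 ± 0.479 to 1.08 ± 0.152 CPM). Of 10 progenitor markers 5 fell (Cd34, Flt3, Meis1, Hlf and Mecom) and 1 rose (Myb), beside 7.69% of all genes lower and 8.29% higher. All 12 erythroid markers were higher and 1 of them, Slc4a1, rose; with the replicate number as a block 11 of the 12 rose, in a fit that called 16.7% of all genes higher. In bulk RNA a change in the share of a cell type and a change in RNA per cell cannot be told apart, and the part of these marker differences in the results was not tested.

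Of the 31 genes 5 passed the test across all genes, and their changes were modest in size. Insig1, Srebf2, Cyp51 and Nr1h2 fell in ASXL1-MT-KI cells by 12.9% to 20.3%, and Dhcr7 rose by 21.0%. The other 26 members did not pass an adjusted p of 0.05 (quasi-likelihood test in edgeR, p adjusted by Benjamini-Hochberg over 13548 genes). The same test called 16% of all genes, 8.29% higher and 7.69% lower, so 5 of 31 is near the background share. The median log2 fold change was 0.01 over the 31 members and 0.00 over all genes tested. In 12 members the 3 libraries of one genotype all lay on the same side of those of the other, 5 higher and 7 lower in ASXL1-MT-KI; across all genes tested 35.2% were separated in this way, 18% higher and 17.2% lower.

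**Figure D1:**
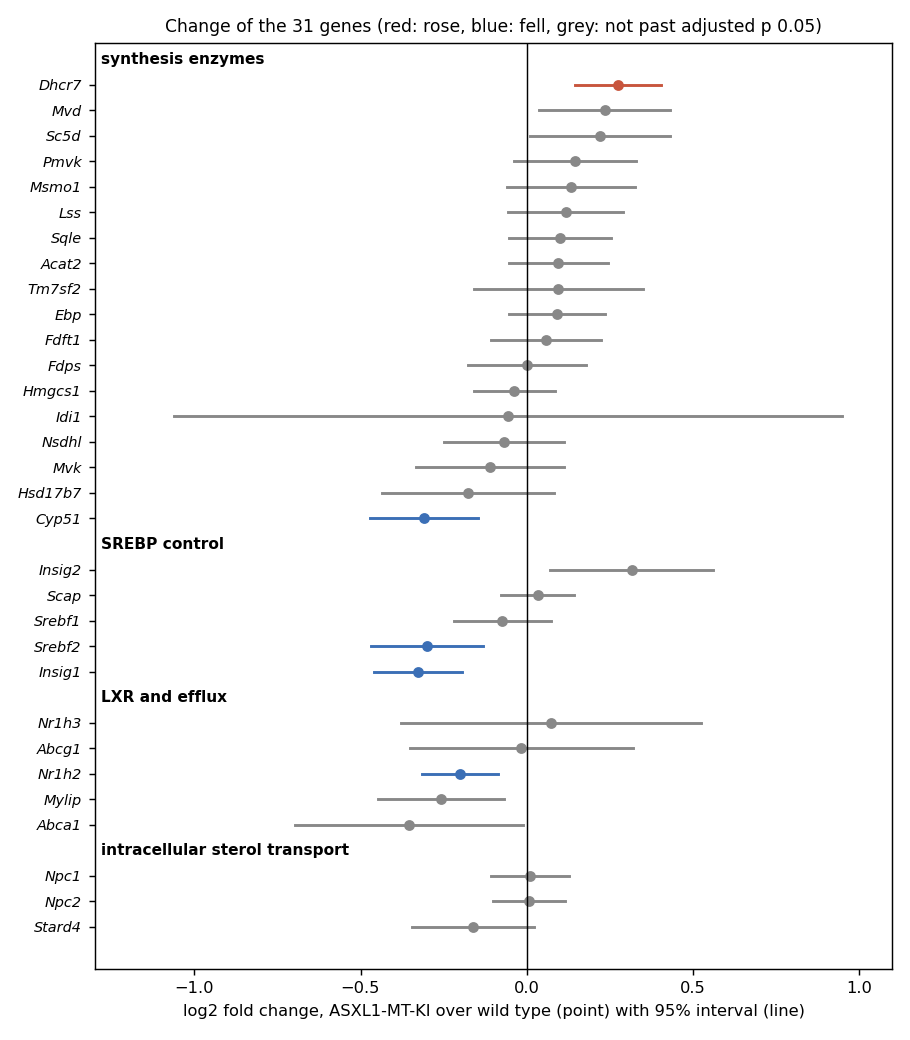
Points are log2 fold changes of ASXL1-MT-KI over wild type and lines their 95% intervals from the edgeR fit, for 31 genes ordered by fold change inside each role. Dhcr7 alone is red (rose, log2 fold change 0.27), Cyp51, Srebf2, Insig1 and Nr1h2 are blue (fell), and the Idi1 interval, from -1.06 to 0.95, is the widest.

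In the SREBP control group 2 of 5 genes fell, Insig1 and Srebf2, beside 7.69% of all genes, and the others did not pass. The group median was -0.07 (log2), -0.02 with total counts and between -0.12 and -0.02 on leaving out 1 library (-0.12 without ASXL1-MT-KI 1, -0.03 without wild type 1 and -0.02 without ASXL1-MT-KI 3). Insig1 encodes a retention protein of the endoplasmic reticulum that is itself switched on by SREBP, and lies on chromosome 5 from 28071363 to 28078662 in mm10. Its level was 57.3, 57.2 and 62.4 CPM in the wild type, libraries 1 to 3, against 48.5, 44.8 and 47.8 CPM in ASXL1-MT-KI. Every ASXL1-MT-KI library was below every wild type library. The fall was from 59.0 ± 2.97 to 47.0 ± 1.96 CPM (SD, n = 3 each; log2 fold change -0.33 ± 0.059, SE; adjusted p = 0.00584). It was the only member called in all 14 alternative analyses, with adjusted p from 0.000145 to 0.0312.

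Srebf2 encodes SREBP2, the family member that mainly drives sterol synthesis genes, and lies on chromosome 15 from 82147181 to 82205379. Wild type libraries 1 to 3 had 196.8, 189.1 and 217.0 CPM, and ASXL1-MT-KI libraries 173.2, 146.4 and 170.0 CPM. The groups did not overlap, and ASXL1-MT-KI 2 was the lowest library. The log2 fold change was -0.30 ± 0.075 (201.0 ± 14.4 to 163.2 ± 14.6 CPM, adjusted p = 0.0266). The call was lost with total counts in place of TMM scaling (adjusted p = 0.0627), without wild type library 1 (adjusted p = 0.0765) and without the second ASXL1-MT-KI library (adjusted p = 0.0727), within a range of 9.86e-05 to 0.0765 over the alternatives.

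Srebf1, which encodes the SREBP1 forms tied more to fatty acid synthesis, stood at 134.5 ± 7.24 and 127.8 ± 9.11 CPM (log2 fold change -0.07, 95% interval -0.22 to 0.07). Scap, the escort protein gene, stood at 156.0 ± 4.15 and 159.5 ± 6.43 CPM (interval -0.08 to 0.14). For both genes the libraries of the genotypes overlapped. Insig2 encodes the other INSIG protein. Its wild type libraries had 7.84, 9.05 and 7.61 CPM and its ASXL1-MT-KI libraries 9.61, 9.69 and 11.2 CPM. All ASXL1-MT-KI values were higher, opposite in sign to Insig1 (log2 fold change 0.32 ± 0.11), but the gene did not pass (adjusted p = 0.082). With the replicate number as a block it passed (adjusted p = 0.0277), in a fit that called 30.5% of all genes.

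**Figure D2:**
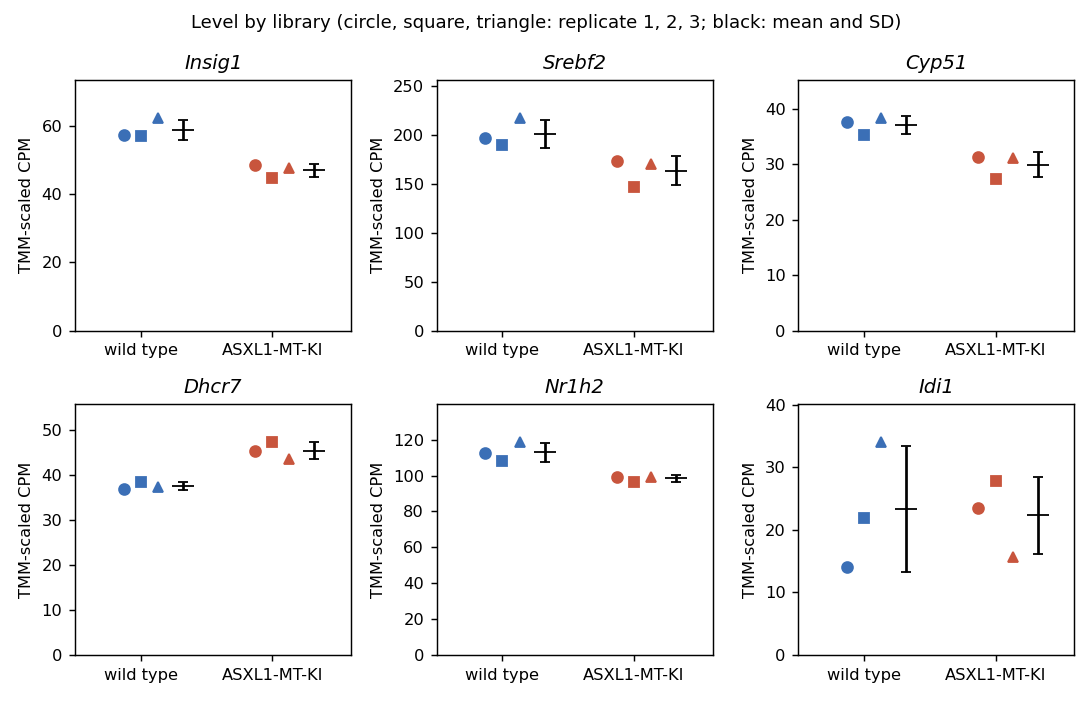
TMM-scaled CPM from 0 in each library for 6 genes, wild type in blue and ASXL1-MT-KI in red, with mean and SD in black. Insig1, Srebf2, Cyp51 and Nr1h2 lie lower in every ASXL1-MT-KI library, Dhcr7 lies higher, and Idi1 spreads from 14.0 to 34.0 CPM among the wild type libraries alone.

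Among the 18 synthesis enzymes 1 rose and 1 fell, at different steps after squalene, beside 8.29% of all genes higher and 7.69% lower. The group had 12 members with a positive and 6 with a negative log2 fold change, 11 and 7 or 13 and 5 under some other settings, and a median of 0.09 (0.14 with total counts, 0.05 without wild type library 1). Over all genes tested 50.2% of log2 fold changes were positive. The summed level of the enzymes was 437.2 ± 17.3 CPM in wild type and 448.7 ± 7.87 CPM in ASXL1-MT-KI (SD, n = 3 each), with library values from 419.2 to 453.7 and from 442.3 to 457.5 CPM that overlapped. The 15 genes of the G2 and M phase list, followed because dividing cells make membrane, held 0 calls in edgeR (1 gene at an unadjusted p under 0.05), but 6 rises with the replicate block beside 16.7% of all genes, and summed to 3023 to 3642 CPM in wild type and 3306 to 3727 CPM in ASXL1-MT-KI.

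Cyp51 encodes lanosterol demethylase, the first enzyme to act on the sterol ring after cyclization, on chromosome 5 from 4081145 to 4104746. Its wild type libraries had 37.6, 35.2 and 38.3 CPM and its ASXL1-MT-KI libraries 31.3, 27.3 and 31.1 CPM. No ASXL1-MT-KI library reached the lowest wild type value (log2 fold change -0.31 ± 0.073, adjusted p = 0.0193). Leaving out wild type library 1 (adjusted p = 0.0765) or the second ASXL1-MT-KI library (adjusted p = 0.0724) ended the call, within a range of 0.000823 to 0.0765 over the alternatives. Its exons share 166 bases with Akap9 on the opposite strand, and counts from an unstranded kit cannot separate them there; Akap9 itself was at 147.0 ± 10.6 and 141.1 ± 11.5 CPM (adjusted p = 0.629).

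Dhcr7 encodes the reductase of the final step to cholesterol, on chromosome 7 from 143823145 to 143848410. Wild type libraries had 37.0, 38.6 and 37.3 CPM and ASXL1-MT-KI libraries 45.5, 47.4 and 43.7 CPM. The wild type values lay between 37.0 and 38.6 CPM, and every ASXL1-MT-KI value was above them (log2 fold change 0.27 ± 0.057, adjusted p = 0.0118). The call ended on leaving out wild type library 1 (adjusted p = 0.0541) or the second ASXL1-MT-KI library (0.0715), within a range of 0.00118 to 0.0715.

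The early, mevalonate part of the pathway held no called gene. Acat2, a thiolase at the entry, Hmgcs1, which makes HMG-CoA, and the kinase genes Mvk and Pmvk had log2 fold changes of 0.10, -0.04, -0.11 and 0.15, with 95% intervals that all included 0. For Hmgcs1 the interval was -0.16 to 0.08. Acat2, Msmo1 and Mvd, with Dhcr7, were the 4 enzymes whose ASXL1-MT-KI libraries all lay above wild type, beside 18% of all genes. Mvd, the decarboxylase that makes isopentenyl diphosphate, read 9.15, 10.3 and 9.49 CPM in wild type and 11.7, 10.8 and 11.5 CPM in ASXL1-MT-KI, without overlap, but did not pass (log2 fold change 0.23 ± 0.088, adjusted p = 0.106). Fdps, which makes farnesyl diphosphate, was at 66.2 ± 3.52 and 66.3 ± 7.10 CPM (log2 fold change 0.00, interval -0.18 to 0.18).

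Idi1, the isomerase that supplies dimethylallyl diphosphate, varied far more between libraries than between genotypes. Its wild type libraries 1 to 3 read 14.0, 21.9 and 34.0 CPM, against 23.4, 27.9 and 15.7 CPM for ASXL1-MT-KI libraries 1 to 3. The highest and the lowest values were both wild type, and the number 3 libraries were at opposite ends, highest in wild type and lowest in ASXL1-MT-KI. Its biological coefficient of variation was 32.9%, above 99.6% of the 1819 genes within 0.5 log2 units of its level, whose median was 7.76%. The other 17 enzymes lay at coefficients from 5.80% to 10.6%. The log2 fold change of Idi1 was -0.06 ± 0.39, and 0.52 with numbers 1 and 2 only (adjusted p = 0.286). Its exons share 323 bases with the gene model Gm48574.

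Of the squalene and ring-forming enzymes, Fdft1 (squalene synthase), Sqle (squalene epoxidase) and Lss (lanosterol synthase) had log2 fold changes of 0.06, 0.10 and 0.12, and Sqle ranged from 30.8 to 35.5 CPM in wild type and 34.8 to 36.7 CPM in ASXL1-MT-KI. Of the later sterol enzymes, Tm7sf2, Msmo1 and Ebp were at 0.09, 0.13 and 0.09, and Nsdhl and Hsd17b7 at -0.07 and -0.18; none of these passed, and at an unadjusted p under 0.05 none of them did either. Sc5d, the desaturase just before the last reductions, was at 16.4, 15.9 and 18.8 CPM in wild type and 19.2, 18.4 and 21.8 CPM in ASXL1-MT-KI. The groups overlapped because wild type 3 exceeded ASXL1-MT-KI 2. Sc5d did not pass (log2 fold change 0.22 ± 0.094, adjusted p = 0.149) and did so with the replicate block (adjusted p = 0.0253). The fit with the block called 16.7% of all genes higher.

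**Figure D3:**
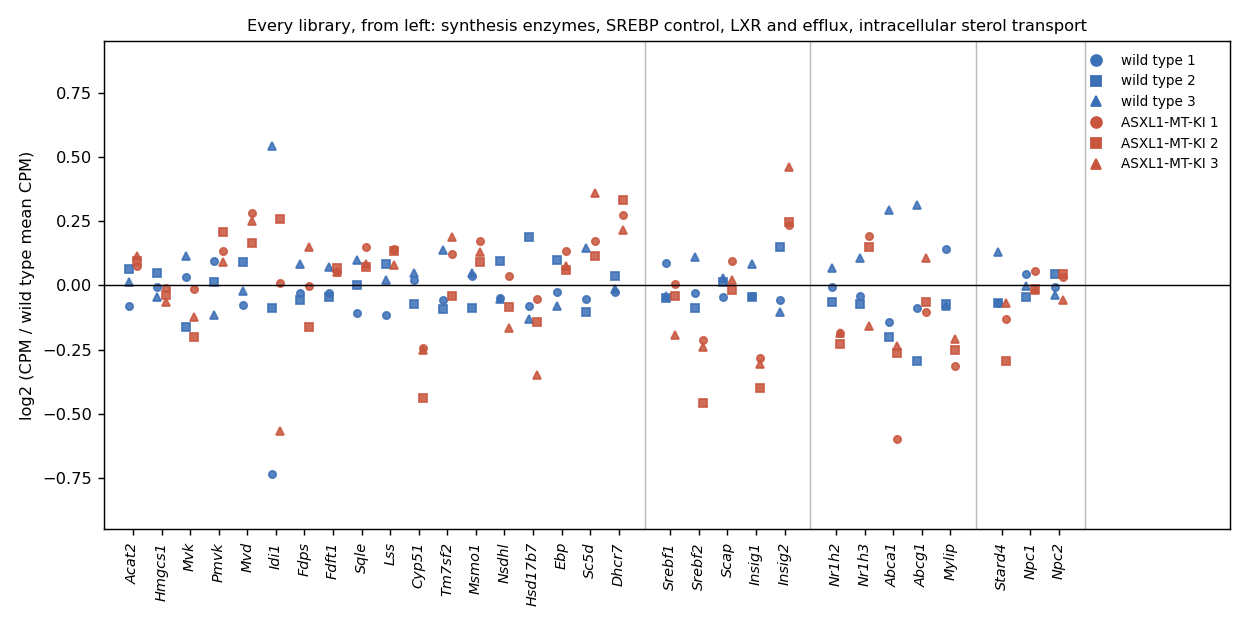
Each of the 31 genes in each library as log2 of its CPM over the wild type mean, wild type in blue and ASXL1-MT-KI in red, with circle, square and triangle for replicates 1 to 3. Most enzymes lie within 0.3 of 0 in every library, and Idi1 runs from -0.73 to 0.54 inside wild type.

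Promoter sequence is shown for the 3 sterol-control and synthesis genes that fell and for Hmgcs1, a synthesis gene that did not pass, because SREBPs are known to act together with NF-Y, a factor that binds CCAAT. Each line gives the 250 bases before the RefSeq start (GRCm38.p6) in the direction of transcription. Capitals mark CCAAT and exact matches to TCACNCCAC, a strict form of the sterol response element, on either strand. Looser forms of that element were not searched, so a line without such capitals may still hold one.
Insig1, chr5:28071162-28071411, plus strand: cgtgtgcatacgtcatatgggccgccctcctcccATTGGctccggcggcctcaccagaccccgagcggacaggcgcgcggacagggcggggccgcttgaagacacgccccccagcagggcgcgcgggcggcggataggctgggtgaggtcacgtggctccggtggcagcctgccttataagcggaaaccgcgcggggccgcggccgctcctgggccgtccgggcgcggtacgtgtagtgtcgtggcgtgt
Srebf2, chr15:82147019-82147268, plus strand: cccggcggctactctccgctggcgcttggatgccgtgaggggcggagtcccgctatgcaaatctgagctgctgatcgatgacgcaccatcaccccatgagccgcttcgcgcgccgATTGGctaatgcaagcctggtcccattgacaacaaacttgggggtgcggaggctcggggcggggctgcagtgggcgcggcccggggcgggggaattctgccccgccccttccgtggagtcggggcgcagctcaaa
Cyp51, chr5:4104698-4104947, minus strand: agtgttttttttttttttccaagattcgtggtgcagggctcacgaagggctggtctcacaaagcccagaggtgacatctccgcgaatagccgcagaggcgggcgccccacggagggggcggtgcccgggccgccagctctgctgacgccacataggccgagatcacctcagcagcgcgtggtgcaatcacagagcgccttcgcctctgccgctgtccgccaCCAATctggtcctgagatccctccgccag
Hmgcs1, chr13:119690101-119690350, plus strand: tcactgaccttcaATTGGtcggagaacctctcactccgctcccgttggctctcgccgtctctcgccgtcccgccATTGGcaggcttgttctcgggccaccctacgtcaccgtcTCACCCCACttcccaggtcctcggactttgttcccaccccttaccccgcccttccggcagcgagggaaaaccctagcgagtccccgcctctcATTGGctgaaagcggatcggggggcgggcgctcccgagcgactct
The windows of Insig1 and Srebf2 hold 1 CCAAT each, on the strand opposite to the gene, 216 and 135 bases before the start, and that of Cyp51 holds 1 at 29 bases before it, on the same strand. Hmgcs1 has 3 in the printed window and 1 more just after the start. RefSeq promoters were found for 25 of the 31 members. On both strands of windows of 300 bases, which include 50 after the start, CCAAT was searched together with the E-box CACGTG, the Sp1 core GGGCGG and the strict sterol element TCACNCCAC. CCAAT was in 14 of 18 windows of the synthesis enzymes (77.8%), 5 of 10 of the SREBP control genes and 1 of 5 of the LXR and efflux genes, against 37.4% of 32851 promoters. The 18 enzyme windows belong to 15 genes, some with several starts, and 14 of the 15 held CCAAT. The 32851 promoters were not limited to expressed genes. GGGCGG, the core of the Sp1 site, was in 15 of the 18 enzyme windows (83.3%) against 35.7%, and CACGTG in 3 (16.7%) against 7.15%. TCACNCCAC, a strict form of the sterol response element, was in the Hmgcs1 window, 137 bases before the start, and in no other member window; 1.24% of all promoters hold it. The Dhcr7 windows, 3 alternative starts, hold CCAAT at 1 of the starts. These are letter matches and were not related to the changes in level.

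In the LXR and efflux group 1 of 5 genes fell, Nr1h2, beside 7.69% of all genes. Abca1 and Mylip were lower in every ASXL1-MT-KI library without passing. With Nr1h2 they were the 3 of 5 genes separated in this direction, beside 17.2% of all genes. The group median was -0.20, against 0.00 over all genes. Nr1h2 encodes LXR beta, the widely expressed oxysterol receptor, on chromosome 7 from 44549616 to 44553951. Wild type libraries 1 to 3 had 112.5, 108.0 and 118.6 CPM, against 99.4, 96.4 and 99.3 CPM in the ASXL1-MT-KI libraries. The groups were separate and the ASXL1-MT-KI values close together (log2 fold change -0.20 ± 0.051, adjusted p = 0.0277). This call was the least firm of the 5. It was lost with total counts (adjusted p = 0.0877) and on leaving out wild type library 1 (adjusted p = 0.0807) or 3 (0.0522), or any one of the ASXL1-MT-KI libraries 1 (0.0661), 2 (0.105) and 3 (0.052), within a range of 0.00203 to 0.105.

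Nr1h3 encodes LXR alpha, the form most abundant in liver and macrophages. It was close to absent, at 1.05, 1.03 and 1.16 CPM in wild type and 1.23, 1.19 and 0.964 CPM in ASXL1-MT-KI, and the groups overlapped (log2 fold change 0.07, interval -0.38 to 0.53). Per kilobase of transcript the wild type level of Nr1h2 was 56.5 ± 2.65 and that of Nr1h3 0.551 ± 0.037 CPM per kb, so most LXR transcript in these libraries was LXR beta.

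The exporter gene Abca1, which loads cholesterol onto lipid-poor apolipoprotein, was at 10.6, 10.2 and 14.4 CPM in wild type and 7.77, 9.80 and 9.98 CPM in ASXL1-MT-KI. Its groups were separate by a small gap, between 9.98 and 10.2 CPM, and it did not pass (log2 fold change -0.35 ± 0.15, adjusted p = 0.151). Its fold change was -0.19 without wild type replicate 3. Abcg1, which exports cholesterol to mature lipoprotein particles, was at 25.9, 22.4 and 34.2 CPM in wild type and 25.6, 26.3 and 29.6 CPM in ASXL1-MT-KI. Wild type 3 was again the highest library and the genotypes overlapped (log2 fold change -0.02, interval -0.35 to 0.32; 0.17 without wild type replicate 3). Both exporter genes varied more than the median gene of similar level, with coefficients of variation of 13.5% against 9.47% for Abca1 and 12.8% against 7.51% for Abcg1.

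Mylip, an LXR target that encodes a ubiquitin ligase against lipoprotein receptors, was at 19.7, 17.0 and 16.9 CPM in wild type and 14.4, 14.98 and 15.4 CPM in ASXL1-MT-KI. Every ASXL1-MT-KI value was lower, but the gene did not pass (log2 fold change -0.26 ± 0.085, adjusted p = 0.0692), although it did without wild type replicate 3 (0.049) and with numbers 1 and 2 only (0.0468), within a range of 0.0251 to 0.223. With the replicate block Nr1h2, Abca1 and Mylip all passed, at adjusted p of 0.00203, 0.0157 and 0.0251, beside 13.8% of all genes lower in that fit. Macrophage markers, followed because macrophages are rich in LXR and exporter transcripts, summed to 180.5 to 210.5 CPM in wild type and 203.2 to 231.8 CPM in ASXL1-MT-KI. Of the 12 markers none was at 0 in all libraries, 8 of 10 tested were higher, and 0 passed in edgeR (1 at an unadjusted p under 0.05). With the replicate block 5 of the 10 rose, Vcam1, Mertk and the complement genes C1qa, C1qb and C1qc, beside 16.7% of all genes. The macrophage sum was highest in the number 3 library of each genotype, as were Abca1 and Abcg1. This was not particular to macrophage markers. The neutrophil marker sum was also highest there (139.7 CPM in wild type 3 and 147.6 CPM in ASXL1-MT-KI 3). The erythroid marker sum was lowest there (1676 and 2432 CPM). Csf1r, the largest part of the macrophage sum, was highest in ASXL1-MT-KI 2 (150.7 CPM, against 138.4 CPM in ASXL1-MT-KI 3). C1qa, C1qb and C1qc averaged 0.274 to 0.821 CPM in the genotypes. The part of macrophage RNA in the exporter values was not tested.

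None of the 3 transport genes was called by edgeR, DESeq2 or limma-voom, and 0 had an unadjusted p below 0.05 in edgeR. Npc2 and Npc1 encode the soluble and the membrane protein that hand cholesterol out of the lysosome. Npc2 was at 229.5, 237.6 and 224.5 CPM in wild type and 235.9, 237.7 and 221.6 CPM in ASXL1-MT-KI, with a 95% interval of -0.10 to 0.12 (log2). Npc1 stood at 54.1 ± 1.66 and 54.4 ± 1.56 CPM, with an interval of -0.11 to 0.13. For this pair differences as large as those of Insig1 or Cyp51 lie outside the interval. Stard4, an SREBP target that shuttles sterol through the cytosol, was at 34.3, 34.3 and 39.3 CPM in wild type and 32.9, 29.3 and 34.3 CPM in ASXL1-MT-KI. The highest ASXL1-MT-KI library, at 34.25 CPM, lay just under the lowest wild type library, at 34.26 CPM, and the gene did not pass (log2 fold change -0.16 ± 0.082, adjusted p = 0.221).

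Levels between genes were compared per kilobase of the longest protein-coding transcript in GENCODE M21. In wild type the highest member was Npc2, at 69.9 ± 1.99 CPM per kb, then Nr1h2 at 56.5 ± 2.65, Fdps at 47.9 ± 2.55 and Srebf2 at 39.6 ± 2.84. The 3 main SREBP control genes Srebf2, Scap and Srebf1 (31.3 ± 1.68 CPM per kb) exceeded all but 1 of the enzymes. Exons of Fdps share 1124 bases with the gene model Gm43738 on the same strand, and those of Scap 985 bases with 5830462I19Rik on the opposite strand, so these levels are uncertain. Exons of Fdft1 (774 bases, Ctsb), Hmgcs1 (557, Gm48342), Tm7sf2 (532, Vps51), Npc1 (511, Rmc1), Lss (381, 4930483K19Rik), Srebf1 (109, Rai1) and Nr1h3 (34, Gm13783) carry the same limit. Dhcr7, Hmgcs1, Pmvk and Sqle lay close together, between 12.0 and 13.4 CPM per kb, and neighbours such as Pmvk (12.1 ± 0.889) and Sqle (12.0 ± 0.846) did not differ beyond their spread. Insig1, at 21.9 ± 1.1, was above Insig2, at 3.03 ± 0.286 CPM per kb. The lowest members were Hsd17b7 at 2.57, Abca1 at 1.14 and Nr1h3 at 0.551 CPM per kb.

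**Figure D4:**
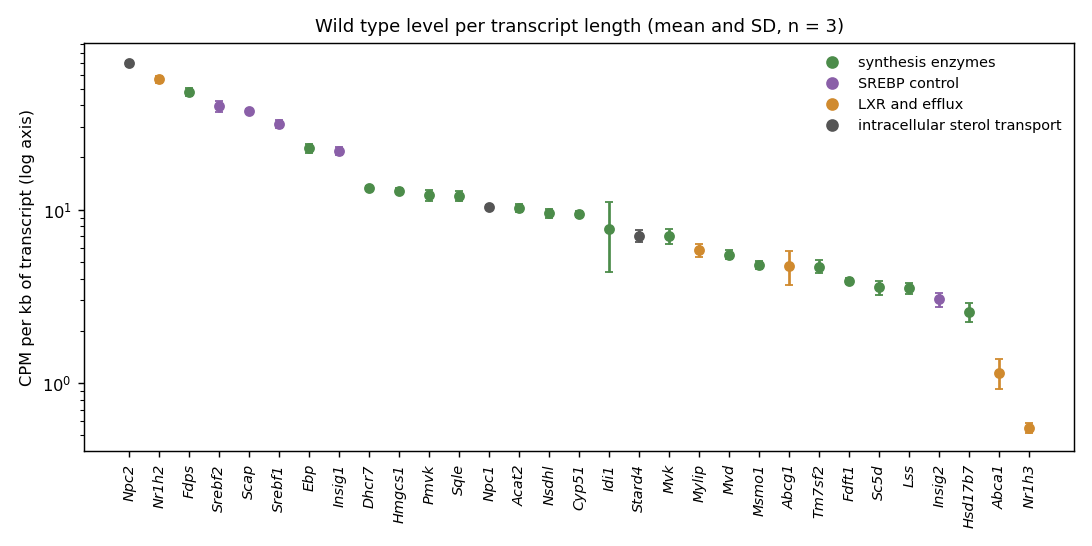
Wild type mean and SD of CPM per kilobase of transcript (log axis, n = 3) for the 31 genes, coloured by role. Npc2 and Nr1h2 lead at 69.9 and 56.5, and Abca1 and Nr1h3 close the row at 1.14 and 0.551.

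Further lists, 7 in number, covered the genes around the members: 104 genes, of which 98 were tested, 6 rose and 8 fell, with a median log2 fold change of 0.01. These were 14.3% of the genes tested, near the 16% over all genes. In the list of sterol esterification, storage and transfer 4 of 20 fell and 1 rose, beside 7.69% of all genes lower and 8.29% higher. Gramd1a and Gramd1b encode proteins that carry accessible cholesterol from the plasma membrane to the endoplasmic reticulum. Gramd1a was at 162.3, 169.4 and 180.3 CPM in wild type and 126.1, 116.8 and 129.6 CPM in ASXL1-MT-KI (log2 fold change -0.46 ± 0.059, adjusted p = 0.00108). Gramd1b was at 33.2, 28.6 and 35.8 CPM and 18.1, 20.7 and 21.3 CPM (log2 fold change -0.70 ± 0.098, adjusted p = 0.00172). Neither gene had overlapping groups, and the falls exceeded those of all 31 members. The oxysterol-binding family genes Osbpl9 (77.9 ± 2.03 to 57.1 ± 2.18 CPM) and Osbpl1a (46.0 ± 1.46 to 36.3 ± 0.565 CPM) fell by 0.45 and 0.34 on the log2 scale. These 4 falls were called in all 14 alternatives. Soat2, a cholesterol esterifying enzyme named here after its value was seen, rose from 6.97 ± 0.496 to 9.52 ± 0.359 CPM, a call lost without ASXL1-MT-KI replicate 1 or 2 (adjusted p up to 0.0605).

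Among 16 tested LXR partners, cofactors and other targets 3 fell and 1 rose, beside 7.69% of all genes lower and 8.29% higher. Arl4c, a small GTPase gene known as an LXR target, was at 89.9, 77.6 and 89.0 CPM in wild type and 56.0, 42.2 and 50.3 CPM in ASXL1-MT-KI (log2 fold change -0.79 ± 0.10, adjusted p = 0.00178; with numbers 1 and 2 only, 0.0577, the highest of a range from 1.87e-12). The coactivator gene Ncoa2 fell from 148.4 ± 4.40 to 119.9 ± 4.02 CPM. Rxra, the gene of a partner receptor of LXR, rose from 10.8 ± 0.816 to 13.7 ± 1.15 CPM. The Rxra call was lost on leaving out library 1 or 2 of either genotype (adjusted p up to 0.165).

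In the list of oxysterol and bile acid enzymes 1 of 6 tested genes passed (16.7%), near the 16% of all genes. Cyp27a1, a mitochondrial enzyme that makes an oxysterol ligand of LXR, had 2.96, 2.94 and 3.82 CPM in wild type against 6.23, 7.48 and 6.75 CPM in ASXL1-MT-KI. The groups were far apart and the gene rose (log2 fold change 1.07 ± 0.15, adjusted p = 0.00142), and was called in all 14 alternatives. Of 14 tested genes of SREBP processing and sterol-regulated degradation 1 passed (7.14%, beside 16% of all genes). This was Fbxw7, the ubiquitin ligase subunit that removes nuclear SREBPs among other targets. Fbxw7 fell by 0.36 on the log2 scale (29.1 ± 1.19 against 22.6 ± 0.697 CPM, adjusted p = 0.00575). Of 16 lipogenic genes 2 rose, beside 8.29% of all genes higher. They were Mid1ip1 (55.3 ± 1.02 to 64.7 ± 2.30 CPM, lost without ASXL1-MT-KI replicate 1 or 2, adjusted p up to 0.08) and the scarcely expressed malic enzyme gene Me1 (0.173 ± 0.059 to 0.640 ± 0.115 CPM). The main lipid synthesis gene Fasn was at 374.8 ± 27.7 and 362.0 ± 6.38 CPM (adjusted p = 0.613). The isoprenoid branch, 14 genes, had 0 calls in edgeR, DESeq2 and limma-voom, and 0 genes below an unadjusted p of 0.05. In the list of lipoprotein and scavenger receptors 1 of 12 tested genes rose, beside 8.29% of all genes. That list had 0 rises when wild type library 1 or any one ASXL1-MT-KI library was left out. With the replicate block 30 of the 98 genes passed, 18 higher and 12 lower, near the 30.5% of all genes.

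**Figure D5:**
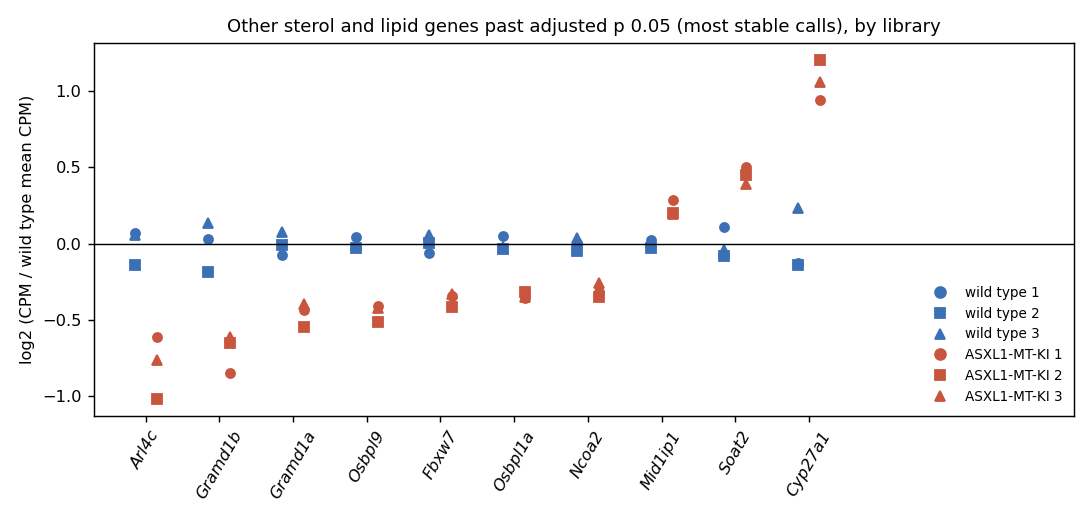
Of the surrounding genes past an adjusted p of 0.05, the 10 other than Me1 whose call was lost in at most 2 of 14 alternatives, in each library as log2 of CPM over the wild type mean, ordered by fold change. ASXL1-MT-KI libraries (red) lie below wild type (blue) from Arl4c to Ncoa2 and above from Mid1ip1 to Cyp27a1.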

How the data were processed

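RNA of 6 libraries, 3 per genotype and 200 ng each, was sequenced as paired reads of 124 bp after preparation with a NEBNext Ultra kit, per the labels' protocols. The kit keeps no record of strand. HISAT2 2.0.4 and the build mm10 appear in the submitters' processing notes. The counting method and its annotation were not given in the sources used here. Values that the authors deposited are raw counts, 1 row per gene symbol (24421 rows), and each column name gives the genotype and number of its library. Members, lists and tests were chosen with earlier results of these data known. Every member was to be named, and of each surrounding list up to 4 genes by lowest p. Values of 2 of these surrounding genes are not reported here.

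The counts were tested with edgeR 4.0.16 in R 4.3.3: filterByExpr (minimum 10 counts, 13548 genes), TMM scaling, the robust quasi-likelihood F test on a model of genotype alone, and p adjusted by Benjamini-Hochberg with a threshold of 0.05. CPM are TMM-scaled. SE is the log2 fold change over the square root of F, and 95% intervals use the moderated degrees of freedom. The pipeline was tested on simulated counts. Alternatives were DESeq2 size factors, total counts, DESeq2 1.42.0, limma-voom (limma 3.58.1), other filters, an adjusted p under 0.10, each library left out and the replicate number as a block; numbers 1 and 2 only was added after seeing the data. Across genes, libraries with the same number deviated together from their genotype means (r = 0.253, 0.162 and 0.391), all above 0.1. Wild type 2 and ASXL1-MT-KI 1, which differ in number, also reached 0.163. The numbers, taken from the titles, entered as a block in an alternative fit only. The main model of genotype alone did not use them as pairs. Libraries of a genotype differed by more than sampling noise. Where separate animals are not stated, p-values measure the spread between these libraries. Positions and transcript lengths are from GENCODE M21 (GRCm38, the assembly mm10 names), and promoters from RefSeq (GRCm38.p6). Figures were drawn with matplotlib 3.10.9.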

Additional observations from a re-analysis of the deposited data

How the results depend on the processing

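Of the 31 members, 16 kept their direction and their side of the threshold in all 14 alternatives, and of the 5 called genes only Insig1 was called in every one. The count of all genes called was 2165; it was 4132 with the replicate block and ranged from 1128 to 2257 on leaving out 1 library (1128 leaving out wild type 1, 1143 leaving out ASXL1-MT-KI 2 and 1388 leaving out ASXL1-MT-KI 1). With total counts 67.1% rather than 51.9% of calls were rises, and the median over all genes tested was 0.05 rather than 0.00 (log2). On leaving out 1 library the synthesis enzymes had 0 to 2 calls, the SREBP control genes 1 to 2, the LXR and efflux genes 0 to 1 and the surrounding genes 9 to 16, the enzymes at 0 and the SREBP control genes at 1 when wild type 1 or ASXL1-MT-KI 2 was left out, and the surrounding genes at 9 when ASXL1-MT-KI 2 was. With total counts 1 SREBP control gene and 0 LXR and efflux genes were called. The LXR and efflux genes had 3 calls with the replicate block, 2 with numbers 1 and 2 only and 2 at an adjusted p under 0.10, and the surrounding genes 30 with the block in place of 14. The block changed the call of 4 members, Sc5d, Insig2, Abca1 and Mylip, all gained. Signs turned for 7 members, none of them called. Hmgcs1 was at 0.0143 with total counts. Idi1 was at 0.0193 in limma-voom and 0.52 with numbers 1 and 2 only, and ran from -0.32 to 0.32 on leaving out 1 library. Fdps was at -0.0017 with DESeq2 size factors and in DESeq2, -0.0043 in limma-voom, -0.0033 with no filter, -0.0037 with the block and -0.0347 with numbers 1 and 2 only, and ran from -0.0829 to 0.0694 on leaving out 1 library. Abcg1 was at 0.0333 with total counts, 0.0068 in limma-voom and 0.10 with numbers 1 and 2 only, and ran from -0.14 to 0.17. On leaving out 1 library Scap ran from -0.0040 to 0.0519, Npc1 from -0.0198 to 0.0310 and Npc2 from -0.0171 to 0.0348. The causes were not tested.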
